A study of Mus musculus with 61 samples.

Results

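At the mouse immunoglobulin heavy chain locus, Igh, the map positions that join the region of the IgG1 constant gene to the region of the intronic enhancer Emu form a square of 400 bin pairs. The rule that picks them uses map position and no measured value. Each pair joins 1 bin of 1 kb from a stretch of 20 kb at IgG1 to 1 from a stretch of 20 kb at Emu. The first stretch runs from 12 kb on the hs4 side of the IgG1 viewpoint bin to 7 kb on its Emu side, and the second from 15 kb on the IgG1 side of the first Emu viewpoint bin to 4 kb past it, where the map ends. These are 400 of the 27495 bin pairs of each map, and their ends lie at least 65 kb apart. The maps carry no genome coordinates, so positions are given in kb from the viewpoint bins. The square splits into 4 block pairs of 10 kb by 10 kb. At IgG1 these are the hs4-side block, up to 3 kb short of the viewpoint, and the viewpoint block, from 2 kb short of it onward. At Emu they are the IgG1-side block, up to 6 kb short of the viewpoint, and the viewpoint block, from 5 kb short of it onward.

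Class switch recombination replaces the first constant gene of the heavy chain, Ighm, with another, such as Ighg1, which encodes the constant part of IgG1. It joins a donor switch region just beside Emu to an acceptor switch region before the new constant gene, so the pairs described here hold the donor and acceptor ends of a switch to IgG1. The reaction needs transcription of both switch regions and AID, the deaminase that starts the breaks. Hs4 belongs to the enhancers that lie past the constant genes at the far end of the locus, and these are known to contact Emu and acceptor genes in activated B cells.

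The maps came from Tri-C of mouse primary B cells, an assay in which a capture probe pulls down ligated fragments that hold a viewpoint, and the 2 further fragments of each read give a bin pair. In the activation series, cells whose titles name B18 and AIDKO, the loss of AID, were captured with the Emu, hs4 and IgG1 probes before activation (0 h) and after 48 h or 72 h of it. LPS and IL4, the activating agents, induce switching to IgG1. The 0 h cells carry WT as their treatment label, and 1 of the 2 libraries at 0 h is titled as replicates 1 and 3 together. Each probe had 2, 3 and 3 libraries at the 3 times, and the IgG1 probe had them for each of 2 clones, whose maps were averaged per replicate number and time. In the TPL series, B18 AIDKO cells activated for 72 h had no TPL, 1 h or 3 h of TPL, a compound the labels do not spell out, with 3 libraries each at the Emu probe. The Spt5 series set controls against cells that lost Spt5, an elongation factor of RNA polymerase II, by 4HT given over the last 32 h of 62 h of activation. It had 4 and 5 libraries from 2 clones at the IgG1 probe, and 2 and 3 at the IgG2a probe. Its titles do not name AIDKO, and its controls are labelled WT with no activation time. The IgG3 probe had 3 libraries of B18 AIDKO cells titled day 0 of LPS, labelled WT, and 3 titled day 3, labelled 72 h activated. The medium label names LPS and IL4 for every library, these included. What the clones are and whether replicates were separate cultures or animals is not stated, so p-values measure the spread between these libraries, which may be technical. In bulk maps, a contact held by more cells and a contact held more often in each cell cannot be told apart.

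Each of the 61 maps summed to about 300000, and values are given as the percentage of that total. Reads were not given with the maps, so depth is described by how many bin pairs were above 0. That number was 405 to 5073 per map (median 2108). Of the 400 pairs, 368 were above 0 in at least 1 library and 32 in none, and 16 of these 32 involve the last bin of the IgG1 stretch, 7 kb from the viewpoint. In single libraries 0.5% to 47.8% of the 400 were above 0, so the sum of the 400 is the measure used. Only the pair that joins the bin 2 kb on the Emu side of the IgG1 viewpoint to the bin 6 kb short of the Emu viewpoint was above 0 in more libraries than not (32 of 61). The sum ranged from 0.0399% to 4.63% of the map. 1 bin at IgG1 was empty in all 25 libraries of the IgG1 probe, and 2 bins at Emu in all 17 of the Emu probe, and these are taken as the viewpoints. Those probes therefore see the 400 pairs with 1 end beside the viewpoint, and the hs4, IgG2a and IgG3 probes see them as contacts of 3 separate places. Levels are compared within a probe only.

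Seen from hs4, the pairs joining IgG1 and Emu held more of the map at 72 h of activation than at 0 h. The 400 pairs held 0.284% and 0.283% of the map in the 2 libraries at 0 h. At 48 h they held 0.654%, 0.244% and 0.495%. At 72 h they held 1.16%, 0.855% and 1.03%. All 72 h libraries lay above all others, and those at 48 h overlapped those at 0 h. The sum rose from 0.284 ± 0.000648% (SD, n = 2) to 1.01 ± 0.152% (n = 3) at 72 h, a log2 change of 1.77 (SE 0.44, limma adjusted p = 0.013). At 48 h it was 0.464 ± 0.207% (n = 3), and the log2 change of 0.57 did not pass (adjusted p = 0.49). Of the 250 features of this probe, 4% were called at 72 h (9 higher, 1 lower). At 48 h it was 3.2% (6 higher, 2 lower). The median feature changed by -0.09 and -0.10 on the log2 scale, and the sum ranked 11 and 64 from the highest. The number of the 400 pairs above 0 moved with it, from 9 to 13 at 0 h to 36 to 48 at 72 h. The bin pairs above 0 in the whole map were 2108 to 2476 and 2410 to 2833. The 0 h sums thus rest on few pairs, and the largest single pair held 30.6% to 31.3% of them. At 72 h it held 12.3% to 15.2%. With a prior variance held constant over signal levels the change at 72 h did not pass (adjusted p = 0.13). It also missed the threshold when either 0 h library was left out (log2 1.77 and 1.76, adjusted p = 0.093 and 0.051), and when 72 h replicate 1 or 3 was (log2 1.67 and 1.75, adjusted p = 0.083 and 0.056).

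**Figure D1:**
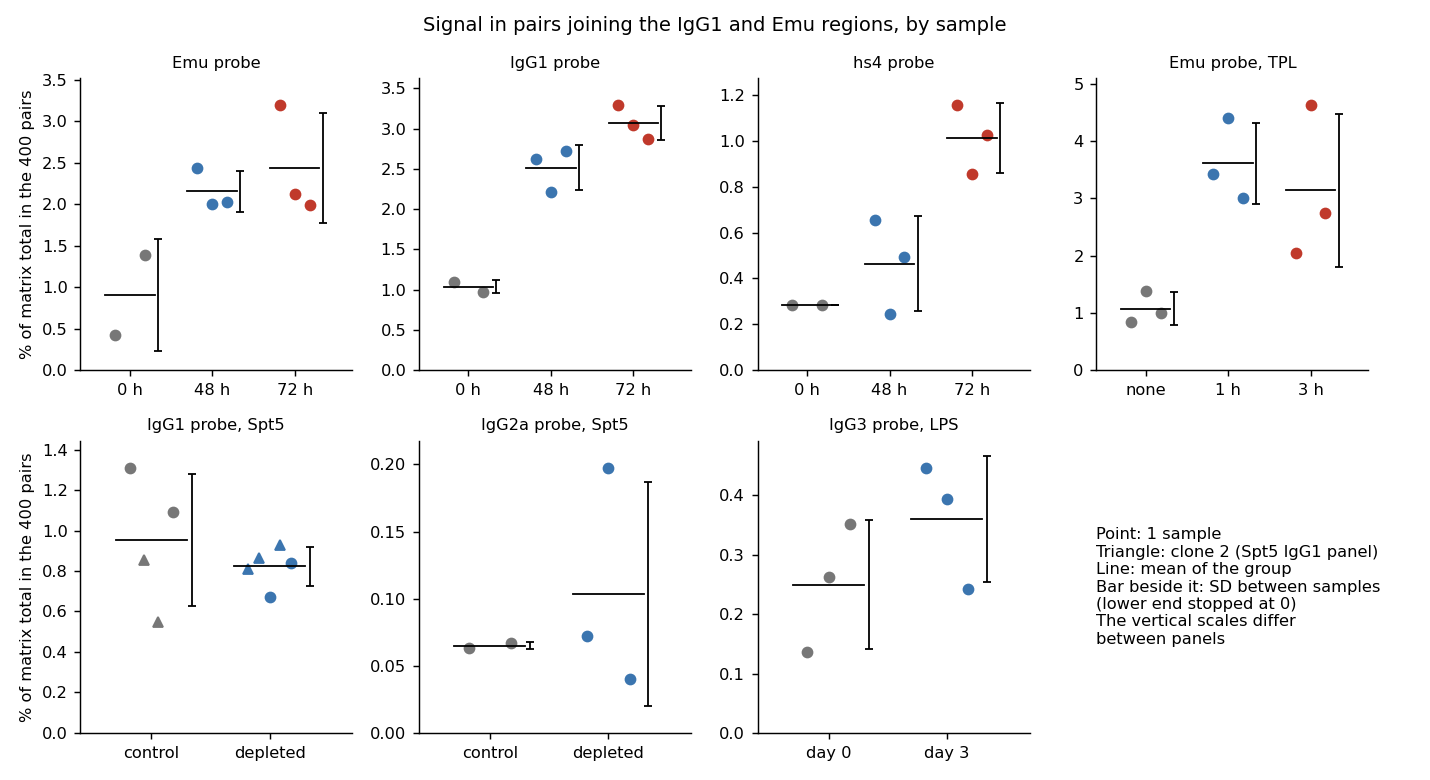
Signal in the 400 pairs joining the IgG1 and Emu regions, as % of the map total, for each sample of each probe and series (points), with the group mean (line) and SD between samples (bar). In the hs4 panel the 72 h samples, at 0.855 to 1.16%, lie above all others. In the Spt5 panel of the IgG1 probe the groups overlap.

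Seen from hs4, 1 of the 4 block pairs had no signal listed before activation. Pairs of the hs4-side block of IgG1 with the viewpoint block of Emu were at 0 in both 0 h libraries, and above 0 in all 6 activated ones. They held 0.203%, 0.0833% and 0.0848% at 48 h, and 0.292%, 0.370% and 0.358% at 72 h. This block pair reached the minimum mean level only through the activated libraries, so it is described with no test and no fold. The other 3 block pairs did not pass at either time, and the summed value of the pair of viewpoint blocks was 0.119% and 0.128% at 0 h and 0.362%, 0.0984% and 0.287% at 72 h. The share of the 400 pairs that fell in the hs4-side block of IgG1 was 27.7% and 39.3% at 0 h, 45.1% to 51.7% at 48 h and 50.9% to 76.9% at 72 h. These groups did not overlap with 0 h. The share includes the block pair that was at 0 in both 0 h libraries, so it partly restates that and is given with no test. The IgG1 bin with the highest mean over all times lay 6 kb on the hs4 side of the viewpoint. It was picked by these same values, mainly those at 72 h, so its course is described with no test. That bin was at 0 at 0 h and held 0.0186 ± 0.0240% at 48 h and 0.212 ± 0.060% at 72 h.

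Other region pairs seen from hs4 did not all move the same way. Pairs of hs4 with IgG1 rose at 72 h (log2 1.41, adjusted p = 0.0025). Pairs of hs4 with Emu held 3.31% and 2.98% at 0 h and 3.02%, 2.11% and 3.20% at 72 h (log2 -0.20, adjusted p = 0.68). Pairs of Emu with IgG3, the next constant gene toward Emu, held 0.481% and 0.449% at 0 h and 0.231%, 0.321% and 0.0958% at 72 h (log2 -1.19, adjusted p = 0.20). The change of the IgG1 with Emu pairs at 72 h exceeded that of hs4 with Emu by 1.97 on the log2 scale (adjusted p = 0.0039) and that of IgG3 with Emu by 2.96 (adjusted p = 0.0035). It exceeded that of Emu with the 20 kb next to the IgG1 region on the Emu side by 2.58 (adjusted p = 0.0038), a window that shares bins with the IgG3 region. It was not shown to exceed those of hs4 with IgG1 (0.36, adjusted p = 0.58), of Emu with the 20 kb next to the IgG1 region on the hs4 side (0.86, adjusted p = 0.17) or of IgG1 with the 20 kb before the Emu region (0.28, adjusted p = 0.68). Of 249 other features, block pairs of the square included, 47.4% changed less than the 400 pairs by a difference that passed (limma adjusted p under 0.05). At that threshold 1 feature changed more. It was the square's own block pair that was at 0 at 0 h, and no result is drawn from it. By size of change alone the 400 pairs ranked 11 from the highest.

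**Figure D2:**
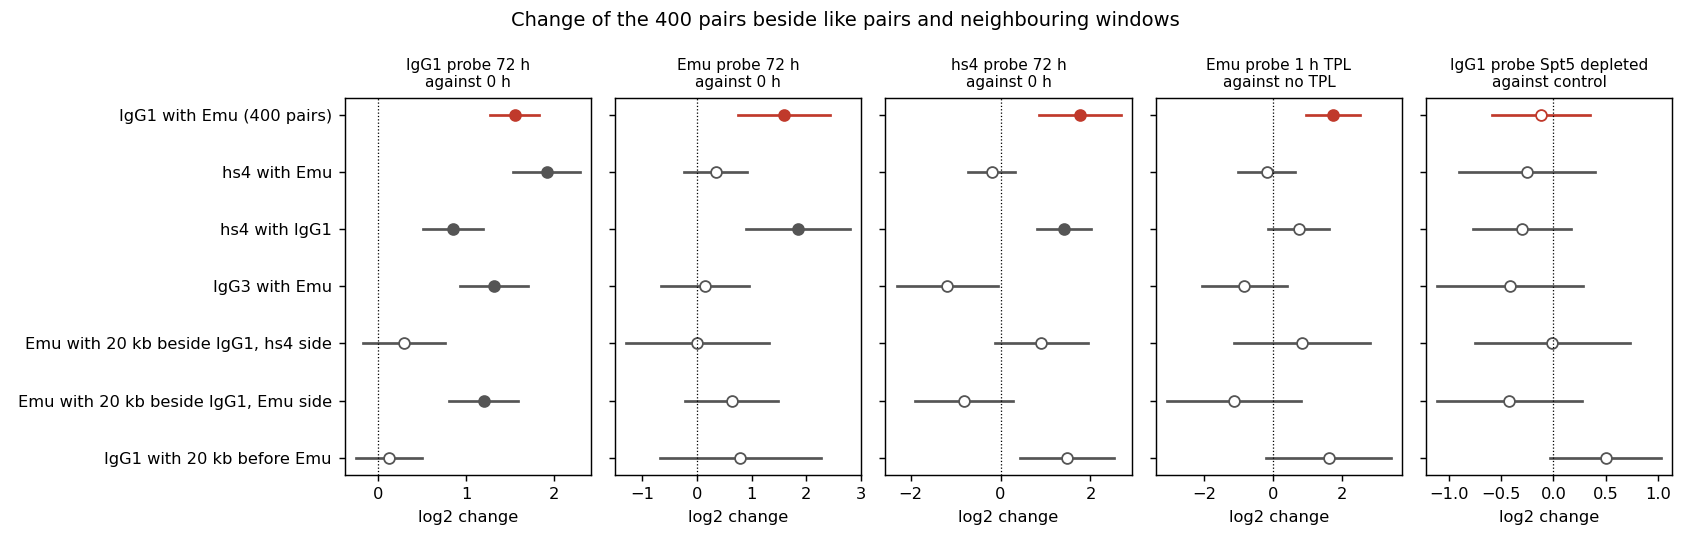
Log2 change (point) with its 95% confidence interval (line) for the 400 pairs, 3 like pairs of regions and 3 neighbouring windows in 5 comparisons; filled points passed the limma test over all features. The 400 pairs are filled in 4 of the 5 panels, and in the hs4 panel (log2 1.77) stand above hs4 with Emu (-0.20) and IgG3 with Emu (-1.19).

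Seen from IgG1, the share of the map in the 400 pairs was already higher at 48 h. The averaged clones held 1.09% and 0.977% of the map at 0 h. At 48 h they held 2.62%, 2.21% and 2.73%, and at 72 h 3.30%, 3.05% and 2.87%. All activated samples lay above the 0 h samples. The mean rose from 1.03 ± 0.0812% (n = 2) to 2.52 ± 0.274% (n = 3) and 3.07 ± 0.215% (n = 3). The log2 changes were 1.27 (SE 0.14, limma adjusted p = 1.8e-08) and 1.55 (SE 0.14, adjusted p = 1.9e-10). Many features moved at this probe: 44.4% of 252 were called at 48 h (39 higher, 73 lower) and 43.7% at 72 h (43 higher, 67 lower). Scaled by the median of ratios these were 56 higher with 39 lower, and 60 higher with 54 lower, with the median feature shifted by 0.35 and 0.25. Scaled to the signal in pairs at least 20 kb apart they were 59 higher with 35 lower, and 60 higher with 54 lower, with shifts of 0.36 and 0.18. The sum of the 400 pairs ranked 14 from the highest at both times, and the median feature changed by -0.29 and -0.21.

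Each clone showed it. In clone 1 the 400 pairs held 1.40% and 1.01% at 0 h, 2.82%, 2.35% and 2.73% at 48 h and 3.73%, 3.19% and 3.62% at 72 h. In clone 2 they held 0.779% and 0.942% at 0 h, 2.42%, 2.07% and 2.72% at 48 h and 2.86%, 2.91% and 2.11% at 72 h. Within each clone no activated library overlapped those at 0 h. The log2 change at 72 h was 1.54 in clone 1 (adjusted p = 8.8e-07) and 1.58 in clone 2 (adjusted p = 2.0e-08), a difference between clones of 0.04 (95% confidence interval -0.48 to 0.56, adjusted p = 0.95). Whether 72 h exceeded 48 h was not settled: the 72 h samples all lay above those at 48 h, with a log2 change of 0.29 (SE 0.12), but it did not pass over all features (limma adjusted p = 0.42). No feature did (0% of 252 by limma, 25 at an unadjusted p under 0.05).

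All 4 block pairs rose at this probe, and whether they differ from each other was not tested. The pair of viewpoint blocks held 0.386% and 0.250% at 0 h, 0.897%, 1.11% and 1.19% at 48 h and 1.37%, 1.22% and 1.02% at 72 h. Their log2 changes were 1.71 (adjusted p = 6.8e-08) and 1.89 (adjusted p = 9.6e-09). The hs4-side block of IgG1 with the viewpoint block of Emu changed by 1.29 and 1.61 (adjusted p = 1.5e-04 and 5.4e-06). Joined to the IgG1-side block of Emu, the log2 changes were 0.83 and 1.16 for the hs4-side block (adjusted p = 0.0079 and 3.6e-04). They were 0.81 and 1.25 for the viewpoint block of IgG1 (adjusted p = 0.0044 and 4.0e-05), and without bins near the viewpoint neither of these passed (0.46 and 0.66, adjusted p = 0.48 and 0.28). At 48 h that block pair also missed the threshold with a constant prior variance, without replicate 1 at 0 h and in clone 1 alone (adjusted p = 0.051, 0.055 and 0.069). In clone 2 alone the hs4-side block of IgG1 with the IgG1-side block of Emu did not pass (log2 0.65 and 0.77, adjusted p = 0.20 and 0.12). The bin with the highest mean at Emu was the bin 1 kb short of the viewpoint, at 0.115 ± 0.050%, 0.267 ± 0.061% and 0.472 ± 0.129% at the 3 times. At IgG1 it was the bin 3 kb on the Emu side of the viewpoint, at 0.192 ± 0.125%, 0.321 ± 0.049% and 0.406 ± 0.046%. Leaving out all bins within 5 bins of the IgG1 viewpoint left log2 changes of 0.94 and 1.14 for the whole square (adjusted p = 4.1e-04 and 3.0e-05).

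**Figure D3:**
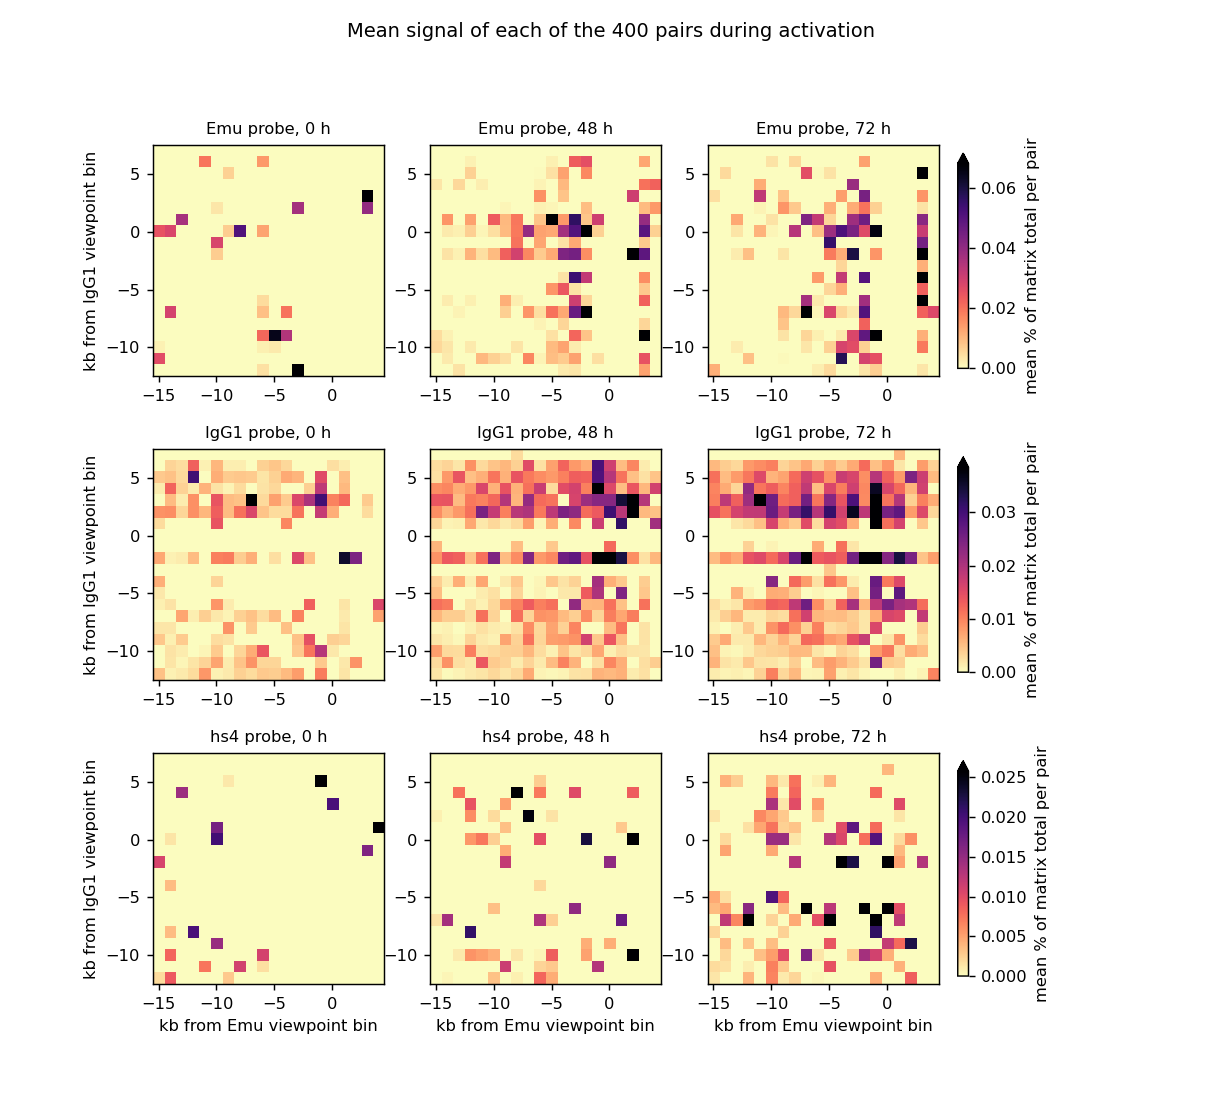
Mean signal of each of the 400 pairs (% of the map total per pair) at 0, 48 and 72 h for the Emu, IgG1 and hs4 probes, with kb from the IgG1 viewpoint bin upward and kb from the first Emu viewpoint bin to the right; colours are scaled within a probe and the darkest stands for its top 1% of values and above. The empty row of the IgG1 maps at 0 kb and the empty columns of the Emu maps at 0 kb and beside it are the viewpoints, and more pairs are above 0 at 72 h than at 0 h in each probe.

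Against its neighbours, the rise seen from IgG1 was shared with the pairs that join other regions to Emu. Pairs of hs4 with Emu rose by 1.77 and 1.92 on the log2 scale (adjusted p = 1.0e-08 and 1.1e-09), and pairs of IgG3 with Emu by 0.96 and 1.32 (adjusted p = 1.9e-04 and 1.9e-06). At 48 h the 400 pairs changed less than hs4 with Emu, by -0.50 (adjusted p = 0.021), and at 72 h the difference of -0.36 did not pass (adjusted p = 0.080). Their difference from IgG3 with Emu was 0.30 and 0.23 (adjusted p = 0.16 and 0.27). They changed more than hs4 with IgG1, by 0.69 and 0.70 (adjusted p = 0.0029 and 0.0023). They also changed more than IgG1 with the 20 kb before the Emu region, by 1.56 and 1.43 (adjusted p = 1.2e-06 and 2.8e-06), and more than Emu with the 20 kb beside IgG1 on the hs4 side, by 0.89 and 1.26 (adjusted p = 0.0011 and 2.6e-05). Of 251 other features, 76.9% changed less and 3 changed more at 48 h by a difference that passed (limma adjusted p under 0.05). At 72 h these were 81.3% and 3. By size of change alone the 400 pairs ranked 14 from the highest at both times. The step at the edge was seen at the last bins before Emu and on the hs4 side of IgG1, and on the Emu side of IgG1 the difference did not pass (0.35 at both times, adjusted p = 0.11 and 0.10).

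Seen from Emu, the values at 0 h were far apart. The 400 pairs held 0.430% and 1.38% of the map in the 2 libraries at 0 h. They held 2.44%, 2.00% and 2.03% at 48 h, and 3.20%, 2.12% and 1.99% at 72 h. The activated libraries all lay above those at 0 h and overlapped each other. The means were 0.907 ± 0.675% (n = 2), 2.16 ± 0.245% (n = 3) and 2.44 ± 0.665% (n = 3), and the sum rose by 1.45 (SE 0.39, limma adjusted p = 0.044) and 1.60 (SE 0.39, adjusted p = 0.027) on the log2 scale. At this probe 5.37% of features were called at 48 h (5 higher, 6 lower) and 9.76% at 72 h (13 higher, 7 lower). Scaled by the median of ratios these were 14 higher with 3 lower at each time, with shifts of the median feature of 0.26 and 0.09. Scaled to pairs at least 20 kb apart they were 27 higher with 2 lower, and 18 higher with 2 lower, with shifts of 0.43 and 0.33. The 400 pairs ranked 21 and 24 from the highest, and the median feature changed by -0.49 and -0.30. Pairs of hs4 with IgG1 changed by 1.45 (adjusted p = 0.070) and rose at 72 h by 1.85 (adjusted p = 0.027). The change of the 400 pairs was not shown to differ from that of any of the 3 like pairs and 3 windows. Those differences ran from 0.00077 to 1.60 at 48 h (adjusted p = 0.067 to 0.999) and from -0.25 to 1.59 at 72 h (adjusted p = 0.089 to 0.78). Over all other features, a difference from the 400 pairs was counted if its limma adjusted p was under 0.05. By that count 33.8% of features at 48 h and 37.3% at 72 h changed less than the 400 pairs, and none changed more. By size of change alone, features did change more, since the 400 pairs ranked 21 and 24 from the highest. The 0 h libraries had 7 and 21 of the 400 pairs above 0 and the activated ones 44 to 61, with 847 to 1219 and 1117 to 1599 bin pairs above 0 in the whole map.

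These calls rest on the 0 h libraries. Without replicate 1 at 0 h the log2 changes were 0.63 and 0.77 (adjusted p = 0.26 and 0.17), and without replicate 2 at 0 h they were 2.28 and 2.43 and passed. They were also lost when any single library at 48 h or at 72 h was left out of its comparison (adjusted p = 0.089 to 0.098 and 0.054 to 0.12), with a constant prior variance (adjusted p = 0.20 and 0.17), and without bins near the viewpoint (log2 0.93 and 0.81, adjusted p = 0.34 and 0.40). At 48 h they were lost with a pseudocount of 10 or 200 (adjusted p = 0.053 and 0.060). Of the block pairs, the hs4-side block of IgG1 with the viewpoint block of Emu passed at 72 h, with 0.179% and 0.245% at 0 h and 0.815%, 1.14% and 0.936% at 72 h (log2 2.10, adjusted p = 0.019). That call was also lost without any single 72 h library (adjusted p = 0.054 to 0.079) and with a constant prior variance (adjusted p = 0.067). The share of the 400 pairs in the viewpoint block of Emu was 41.7% and 69.1% at 0 h and 75.3% to 81.2% in all activated libraries. The bins of highest mean were the IgG1 viewpoint bin, at 0.125 ± 0.025%, 0.362 ± 0.108% and 0.317 ± 0.212%, and the bin 3 kb past the first Emu viewpoint bin. At 72 h against 48 h the log2 change was 0.15 (95% confidence interval -0.61 to 0.90, adjusted p = 0.91), and no feature was called (0% by limma, 19 at an unadjusted p under 0.05).

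Between 48 h and 72 h no probe gave a change that passed. From hs4 the 72 h libraries all lay above those at 48 h, with a log2 change of 1.19 (SE 0.39), which did not pass over all features (limma adjusted p = 0.39; 0% of 250 called by limma, 25 at an unadjusted p under 0.05). The corresponding values were 0.29 from IgG1 and 0.15 from Emu. Whether these differ between probes was not tested, since the probes give different quantities.

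A count of pairs can rise because more signal reaches either region, so the sum was also divided by what the ends in each region would give. Among pairs at least 20 kb apart, the expected share is 2 times the share of ends in the IgG1 region times the share in the Emu region. Seen from IgG1, with clones averaged, this ratio of observed to expected was 1.35 and 1.35 at 0 h, 1.69 to 1.86 at 48 h and 1.63 to 1.80 at 72 h. In the single libraries before averaging it spread wider, at 1.13 to 1.55, 1.53 to 1.97 and 1.61 to 1.80. There 48 h overlapped 0 h and 72 h did not. Seen from hs4 it was 0.757 and 0.643 at 0 h, 0.652 to 1.22 at 48 h and 1.28 to 1.55 at 72 h. The 72 h samples lay above the 0 h samples for both probes, with exact two-sided permutation p = 0.1, the smallest that 2 against 3 allows, and Benjamini-Hochberg adjusted p = 0.38 over 15 comparisons. With that smallest value the adjusted p could not fall under 0.05, so it decides nothing here. Seen from Emu it was 0.926 and 2.03 at 0 h and 1.39 to 2.13 in the activated libraries, so these overlapped. The choice of pairs matters for this ratio: with the pairs under 20 kb apart kept in, the log2 change from 0 h to 72 h turned from 0.35 to -0.03 for IgG1 and from 0.38 to -0.19 for Emu.

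The ends behind the ratio, which include those of the 400 pairs, moved too. Seen from IgG1, the share of ends in the Emu region was 5.66% and 6.07% at 0 h and 14.1% to 16.5% in the activated samples, while the share in the IgG1 region was 19.3% to 20.6% at all times. Seen from hs4, the share in the IgG1 region was 4.36% and 5.61% at 0 h, 8.16% to 8.44% at 48 h and 9.62% to 11% at 72 h. There the share in the Emu region was 10.3% and 10.8% at 0 h and 8.45% to 10.6% after activation. Pairs at least 20 kb apart held 32.4% and 31.7% of the IgG1 map at 0 h, 21.3% to 28.4% at 48 h and 26.5% to 28.9% at 72 h. Of that distant signal the 400 pairs took 3.37% and 3.08% at 0 h, 9.22% to 11.8% at 48 h and 10.8% to 11.4% at 72 h. Of the hs4 map the distant pairs held 39.8% and 38% at 0 h, 23.4% to 33.6% at 48 h and 34.9% to 36.6% at 72 h, so for both probes the mean was lowest at 48 h.

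**Figure D4:**
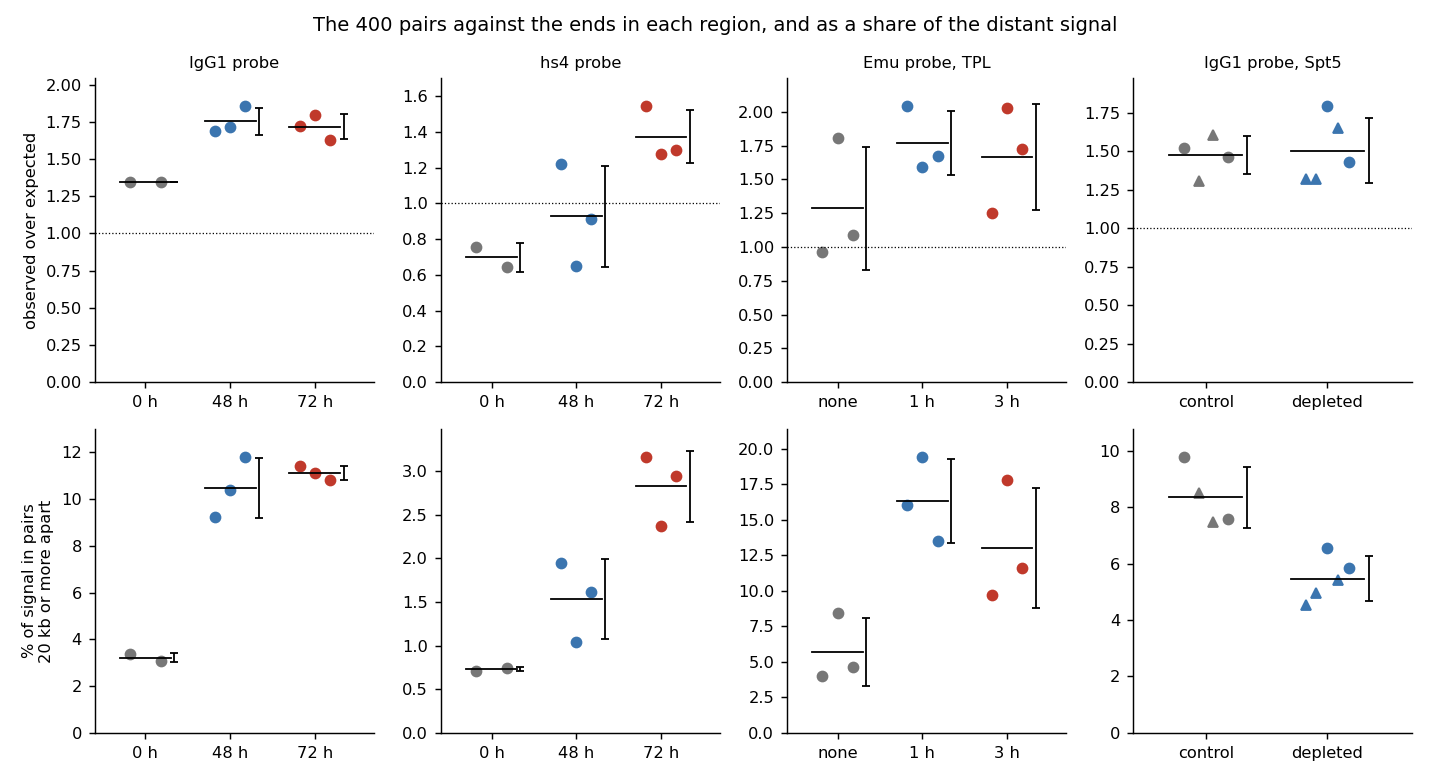
Top, observed over expected for the 400 pairs given the ends in each region (1 is dotted); bottom, the 400 pairs as % of the signal in pairs at least 20 kb apart; points are samples (triangles, clone 2 of the Spt5 series), lines means and bars SD. In the Spt5 panels the ratios overlap, while the shares, at 7.49 to 9.79% in controls and 4.52 to 6.57% in depleted libraries, do not.

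In the TPL series the 400 pairs held more of the map with TPL than without. Libraries with no TPL held 0.841%, 1.39% and 1.00%. Those with 1 h of TPL held 3.43%, 4.40% and 3.01%, and those with 3 h held 2.05%, 4.63% and 2.75%. Every treated library lay above every untreated one. The sum rose by 1.74 on the log2 scale at 1 h (SE 0.38, limma adjusted p = 0.012) and by 1.48 at 3 h (SE 0.38, adjusted p = 0.043). From 1 h to 3 h it changed by -0.27 (95% confidence interval -1.04 to 0.50, adjusted p = 0.94; 0% called by limma, 5 at an unadjusted p under 0.05). Of all features tested, 2.27% were called at 1 h (3 higher, 1 lower) and 1.14% at 3 h (1 of each). By the median of ratios these were 2 of each, and 0 higher with 2 lower, with shifts of -0.17 and -0.34. Scaled to pairs at least 20 kb apart they were 1 of each, and 0 higher with 2 lower, with shifts of -0.16 and 0.17. The 400 pairs ranked 20 and 40 from the highest, and the median feature changed by 0.27 and 0.53.

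Depth moved with TPL. The libraries without TPL had 405 to 568 bin pairs above 0 in the whole map and 9 to 14 of the 400, those with 1 h had 534 to 960 and 16 to 33, and those with 3 h had 800 to 1170 and 28 to 52. Its part in the result was not tested. The activation series holds libraries of the same labelled cells, probe and time with no TPL, with 1117 to 1339 bin pairs above 0, and its 72 h libraries held 1.99% to 3.20%, above all 3 libraries without TPL and overlapping those with 1 h and with 3 h. Titles of the libraries without TPL end in a mark, _2, that no other title carries and that is not explained. With a constant prior variance neither time passed (adjusted p = 0.33 and 0.32). Without bins near the viewpoint the log2 changes were 1.25 and 2.07 (adjusted p = 0.61 and 0.31). At 1 h the call was lost without replicate 1 or 3 of either group (log2 1.58 to 1.87, adjusted p = 0.053 to 0.068). The call at 3 h did not hold when replicate 2 or replicate 3 of that time, or any library without TPL, was left out (log2 1.16 to 1.68, adjusted p = 0.081 to 0.27). It was also lost at 3 h under either scaling (log2 1.22 and 1.08), either pseudocount, inner bins and no filter.

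Within the square, the pair of viewpoint blocks passed at 1 h, from 0.551%, 0.668% and 0.358% without TPL to 3.05%, 1.53% and 1.86% (log2 1.98, adjusted p = 0.028). Without replicate 1 or 3 of either group this call was lost too (adjusted p = 0.060 to 0.18), as it was under either scaling and with a constant prior variance (adjusted p = 0.12, 0.073 and 0.33). The other 3 block pairs did not pass at 1 h, nor did any at 3 h. Single pairs weighed heavily, since the largest of the 400 held 16% to 44.8% of the sum at 1 h and 21.9% to 32.4% without TPL. Pairs of Emu with IgG3 held 1.94%, 1.59% and 1.06% without TPL and 0.428%, 2.75% and 0.478% at 1 h. At 1 h the 400 pairs changed more than IgG3 with Emu, by 2.57 on the log2 scale (adjusted p = 0.0039), more than hs4 with Emu, by 1.92 (adjusted p = 0.013), and more than Emu with the 20 kb on the Emu side of IgG1, by 2.87 (adjusted p = 0.011). They were not shown to change more than hs4 with IgG1 (0.99, adjusted p = 0.24). At 3 h, of the 6 like pairs and windows, only the difference from IgG3 with Emu passed (2.18, adjusted p = 0.042). The share of ends in the IgG1 region was 10.0% to 11.4% without TPL, 19.7% to 23.8% at 1 h and 17.8% to 20.1% at 3 h. That in the Emu region was 18.8% to 23.3%, 16.5% to 30.9% and 18.8% to 21.8%. The ratio of observed to expected overlapped between the groups, at 0.963 to 1.81 without TPL, 1.60 to 2.04 at 1 h and 1.25 to 2.03 at 3 h.

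In the Spt5 series the share of the map held by the 400 pairs at the IgG1 probe overlapped between control and depleted cells. Controls held 1.31% and 1.09% in clone 1 and 0.857% and 0.549% in clone 2. Depleted libraries held 0.671% and 0.840% in clone 1 and 0.811%, 0.862% and 0.928% in clone 2. In clone 1 both depleted libraries lay below both controls, and in clone 2 the depleted libraries lay across and above them. With clone as a term the log2 change was -0.12 (SE 0.24, 95% confidence interval -0.59 to 0.35, limma adjusted p = 0.76). It was 0.02 without control replicate 1 of clone 1 and 0.03 without depleted replicate 3 of clone 1, and -0.37 without control replicate 2 of clone 2. The change was -0.66 in clone 1 and 0.33 in clone 2, and its difference between clones was 0.99 (SE 0.39, limma adjusted p = 0.14). At this probe 12.2% of features were called, 17 up and 6 down. Under the median of ratios they were 1 up and 3 down (shift -0.36), and scaled to pairs at least 20 kb apart 1 up and 7 down (shift -0.30). The median feature changed by 0.36. None of the 4 block pairs passed, nor did the 3 like pairs or the 3 windows.

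As a share of the distant signal the same pairs were lower in every depleted library. Of the signal in pairs at least 20 kb apart, they took 9.79%, 7.59%, 8.51% and 7.49% in controls and 6.57%, 5.85%, 4.52%, 4.95% and 5.44% in depleted cells. The groups did not overlap (exact two-sided permutation within clones, p = 0.017, the smallest this design allows, adjusted p = 0.17 over 15 comparisons). In all other comparisons the smallest permutation p possible was 0.1, so no adjusted p of these tests could fall under 0.05. Each library counted as a separate unit in the Spt5 test, whereas clones were averaged in the activation series. The distant signal itself was 13.4%, 14.4%, 10.1% and 7.33% of the map in controls and 10.2%, 14.4%, 17.9%, 17.4% and 17.1% in depleted cells. In the limma fit on that scale the log2 change of the 400 pairs was -0.59 and did not pass (adjusted p = 0.17). The share of ends in the Emu region was 9.44% to 15.0% in controls and 7.32% to 8.94% in depleted cells (exact permutation p = 0.017, adjusted p = 0.19), and that in the IgG1 region 21.4% to 24.8% and 21.4% to 23.4%. The ratio of observed to expected, 1.31 to 1.60 and 1.32 to 1.79, overlapped (exact permutation p = 0.82, adjusted p = 0.94). Relative to the other features, the 400 pairs changed more than 2 and less than 30. None of those 32 was among the 6 like pairs and windows, whose differences from the 400 pairs ran from -0.62 to 0.30 (adjusted p = 0.16 to 0.78).

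Seen from IgG2a and IgG3, the contact was at the limit of the maps. At the IgG2a probe the 400 pairs held 0.0631% and 0.0667% in controls and 0.0725%, 0.198% and 0.0399% in depleted libraries, from 2 to 8 pairs above 0 in each, with 639 to 860 and 1547 to 1643 bin pairs above 0 in the whole map. The groups overlapped, and the log2 change was 0.33 (95% confidence interval -1.46 to 2.12, adjusted p = 0.83), with 1.19% of features called, 1 up and 1 down, and a median change of 0.91. Scaled by the median of ratios the change was -0.05 and the calls 0 up and 1 down (shift -0.39), and scaled to pairs at least 20 kb apart -0.85 and 1 up and 11 down (shift -0.15). At the IgG3 probe the 400 pairs held 0.136%, 0.262% and 0.352% at day 0 of LPS and 0.447%, 0.394% and 0.243% at day 3. These overlapped, with a log2 change of 0.55 (95% confidence interval -0.45 to 1.56, adjusted p = 0.69). No feature of that probe was called (0% of 230 by limma, 23 at an unadjusted p under 0.05), and by the median of ratios 1 was, upward. The interval holds changes in either direction, and 8 to 21 of the 400 pairs were above 0 in each library.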

How the data were processed

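Tri-C maps of 61 libraries were used. Reads were aligned with Bowtie2 to mm9, per the submitters' processing notes. The contact caller and the way of normalizing were not given in the sources used here, nor were versions. The unit of each deposited matrix is a signal that the authors scaled to a sum of about 300000 (299998 to 300002). No 2 matrices were identical.

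The 400 pairs, 276 pairs of 23 blocks, 3 like pairs of regions and 3 windows were summed. Features with a mean of at least 100 were tested with limma 3.58.1 (R 4.3.3) on log2(signal + 50) with a trended prior variance, 1 fit per series and probe, and Benjamini-Hochberg adjustment over the table at 0.05. Differences between the 400 pairs and each other feature were fitted likewise. Ratios and shares were compared by exact two-sided permutation over samples (Python 3.11.15, numpy 2.4.6). The scripts were tested on simulated data.

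Named are the 400 pairs, their 4 block pairs, the like pairs and windows, and the bin of highest mean on each side. Those bins were picked by their mean over the conditions of the same data and were not tested. The rule for the members is positional, but these regions and the lists were picked with earlier results of these data known. Replicate numbers were not used to pair samples, since in no set did every same-numbered pair deviate together (correlations of -0.2 to 0.24). In groups of 2 libraries the deviations mirror each other, so these correlations cannot exclude pairing. The reported fits use no block. No genome was used here, and no sequence is shown.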

Additional observations from a re-analysis of the deposited data

How the results depend on the processing

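Of the alternative values for the 400 pairs, 38 no longer passed, 13 changed sign and the others kept direction and side of the threshold. For the ratio of observed to expected, 23 changed sign and the others did not. The causes were not tested. Both calls at the IgG1 probe held under every alternative run.

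Log2 changes of the 400 pairs were as follows. For Emu at 48 h they were 1.47 and 1.38 with a pseudocount of 10 and 200, 0.93 without bins near the viewpoint, 1.45 with a constant prior variance and 0.63 to 2.28 with 1 library left out. At 72 h the last 3 were 0.81, 1.60 and 0.77 to 2.43. Between 48 h and 72 h they were -0.076 and -0.073 under distant and median-of-ratios scaling, -0.015 with inner bins, -0.12 without bins near the viewpoint and -0.065 to 0.28 with 1 left out. For hs4 at 72 h they were 1.77 with a constant prior and 1.67 to 1.88 with 1 left out. For 1 h of TPL they were 1.25 without bins near the viewpoint, 1.74 with a constant prior and 1.58 to 1.94 with 1 left out. For 3 h they were 1.49 and 1.44 (pseudocount 10 and 200), 1.48 (no filter), 1.22 and 1.08 (distant and median-of-ratios scaling), 1.71 (inner bins), 2.07 (without bins near the viewpoint), 1.48 (constant prior) and 1.16 to 1.68 (1 left out). From 1 h to 3 h they were 0.0090 with inner bins and 0.82 without bins near the viewpoint. For Spt5 they were 0.33 in clone 2 alone, an alternative chosen after seeing the data, and -0.37 to 0.032 with 1 left out. At IgG2a they were -0.85 and -0.052 under distant and median-of-ratios scaling and -0.20 to 0.76 with 1 left out.

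Log2 changes of the ratio with all pairs kept were -0.18 and -0.19 for Emu, -0.20 and -0.034 for IgG1, 0.16 for IgG1 from 48 h to 72 h, -0.29 for hs4 at 48 h and 0.13 for IgG2a. With inner bins they were 0.019 for IgG1 from 48 h to 72 h, -0.035 for 1 h of TPL, 0.14 from 1 h to 3 h and -0.093 for IgG3. They could not be computed for IgG2a. With 1 left out they were -0.16 to 0.97 and -0.19 to 0.94 for Emu, -0.16 to 0.15 for Emu and -0.063 to 0.012 for IgG1 from 48 h to 72 h, -0.039 to 0.11 for Spt5, -0.26 to 0.089 from 1 h to 3 h of TPL and -0.32 to 0.63 for IgG3.

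Runs with 1 library left out aside, counts of called features ranged over settings from 1 to 29 and 3 to 20 for Emu (11 and 20 reported). They were at least 65 and 75 for IgG1, 0 to 14 and 1 to 14 for hs4 (8 and 10) and 0 to 77 for Spt5 (23). They were 0 to 12 for IgG2a (2), 0 to 6 and 0 to 4 for TPL (4 and 2) and 0 to 7 for IgG3 (0). With 1 library left out they were 3 to 31 for Emu at 72 h and 0 to 18 for IgG2a, and elsewhere lay within the ranges given. With the replicate block, a shared number and no stated pairing, no call of the 400 pairs changed (log2 1.55 for IgG1 and 1.71 for hs4 at 72 h). It gave 3 called features for Spt5 and 12 for Emu at 72 h. Differences between the 400 pairs and other features were fitted under the reported settings only. Few bin pairs above 0 limit the Emu, IgG2a and IgG3 maps. In the hs4 maps few of the 400 pairs were above 0 at 0 h (9 to 13) and at 48 h (16 to 22).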
